A study of Homo sapiens with 24 samples.

Results

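The metallothioneins are described here in U87 MG cells, an established human glioblastoma cell line, after proton therapy (PT) with and without Si306, an inhibitor of Src family kinases. On a two-colour whole human genome array, 17 of 41000 gene probes carried 1 of 10 metallothionein names, of 30982 names in all (MT1A, MT1B, MT1E, MT1F, MT1G, MT1H, MT1L, MT1X, MT2A and MT3). Every probe of these names was taken, whatever its values. MT1A, MT1B and MT1F had 1 probe each and the other 7 names had 2. Of the 17 probes, 16 passed the filter on dim probes, and 1 of the MT1L probes (A_24_P357405) was not well above background on any array.

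There were 4 configurations, all collected 24 h after irradiation. U87 2 Gy and U87 10 Gy were compared with untreated U87 cells. Cells given 10 µM Si306 with protons (U87 Si306 + 2 Gy, and at the higher dose U87 Si306 + 10 Gy) were compared with cells irradiated alike without Si306. The treated RNA always carried the red dye Cy5 and its control the green dye Cy3, with no dye swap, so a dye effect and a treatment effect could not be told apart within an array. The 24 scans came from 8 arrays, 2 for each configuration, and each array was scanned 3 times. An array was therefore taken as the replicate after averaging its scans, and although the labels number the scans of a configuration as biological replicates 1 to 6, the file headers show 2 arrays. Whether these held separate cultures is not given in the sources used here, so p-values may measure technical spread only. Arrays 1 and 2 below are names of the 2 arrays of a configuration.

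Metallothioneins are small proteins rich in cysteine that bind zinc, copper and cadmium and buffer free zinc in the cell. The MT1 and MT2 genes are expressed in many tissues, and their transcription rises with zinc, cadmium, glucocorticoids and oxidative stress. Metal induction runs through MTF1, a zinc finger factor that binds metal response elements near the start of these genes. MT3, also called growth inhibitory factor, is known mainly from the brain.

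The slides stood apart before any treatment ratio was read. The 4 arrays of PT alone lay on slide 1 and the 4 arrays of Si306 on slide 2, where Cy3 held RNA of PT without Si306. The mean level of both dyes differed between the slides with an SD of 1.15 (log2) over the 30316 tested probes, against an SD of at most 0.19 between the 2 arrays of a configuration. Of these probes, 12.5% were at least 2-fold lower and 13% at least 2-fold higher on slide 2. Genes chosen after their values were seen show the size of the gap. The neuronal hydrolase gene UCHL1 had a mean log2 level of 16.43 on slide 1 and 6.07 on slide 2, where it was not well above background in either dye on any array. The cadherin gene CDH2 had a level of 10.26 on slide 1 and 6.01 on slide 2, where it too was not well above background. The epithelial keratin gene KRT19 had a level of 7.42 on slide 1 and 16.71 on slide 2. SPINT2, a protease inhibitor gene, stood at 6.57 and 16.02, and KRT18, another epithelial keratin gene, at 8.65 and 15.27.

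Of the markers fixed for U87 and glioblastoma cells, VIM was at 17.07 on slide 1 and 17.03 on slide 2, while CHI3L1 was at 12.71 on slide 1 and not well above background on slide 2 (6.11). CD44 was at 15.20 and 12.97, TNC at 14.03 and 11.75, and SPARC at 12.65 and 10.55. The list went both ways, since NES was at 9.04 on slide 1 and 10.23 on slide 2, and FN1 at 14.63 and 14.91. The epithelial marker EPCAM, listed on the array under its older name TACSTD1, was at 6.34 and 11.02. The other epithelial marker listed, KRT20, was well above background on both arrays of U87 10 Gy, in Cy5 on 1 array of U87 2 Gy, and on no array of slide 2. Of the 4 astrocyte markers, AQP4 was not well above background on any array and S100B was in 1 of 8 dye readings of slide 2. For GFAP 1 of 3 probes was well above it, in all 8 readings of each slide (6.80 on slide 1 and 8.57 on slide 2), and for ALDH1L1 1 of 2 probes, in 4 of 8 readings of slide 1 and 8 of 8 of slide 2 (6.46 and 7.14), while the remaining probes of both were not on any array. The gap held for RNA without Si306 that carried the same label on both slides. In the RNA labelled 2 Gy without Si306, the log2 level in Cy3 of slide 2 minus that in Cy5 of slide 1 was -10.62 for UCHL1 and 9.25 for KRT19. The value for UCHL1 was set by the floor, as UCHL1 was not well above background on slide 2. Each treatment ratio was formed within an array and is given below as such, and a ratio of PT alone was not set against a ratio of Si306. Both dyes showed the gap, as UCHL1 lay between 16.28 and 16.63 in either dye on slide 1 and between 5.95 and 6.16 on slide 2. The part of slide, culture and cell identity in it cannot be told apart.

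The probes are shown because members of this family share long stretches of sequence. All probes lay on chromosome 16 in the hg17 build, the one named in the scanner files, between 55182294 (MT3) and 55275470 (MT1X). The following 5 probes read as protein-coding throughout, that is, they held a frame with no stop codon and at least 3 cysteine codons (TGC or TGT), and capitals mark the longest run shared exactly with a probe of another member.
MT1A A_23_P54840: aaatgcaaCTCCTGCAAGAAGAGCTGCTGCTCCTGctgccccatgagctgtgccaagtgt
MT1H A_23_P163782: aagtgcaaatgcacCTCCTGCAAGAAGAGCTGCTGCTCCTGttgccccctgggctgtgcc
MT1H A_23_P414343: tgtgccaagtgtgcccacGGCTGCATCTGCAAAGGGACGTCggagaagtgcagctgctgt
MT1X A_23_P303242: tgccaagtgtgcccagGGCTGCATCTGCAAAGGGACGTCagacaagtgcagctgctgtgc
MT3 A_23_P315273: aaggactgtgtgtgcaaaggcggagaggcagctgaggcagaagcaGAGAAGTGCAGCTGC

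The MT1A probe and the first MT1H probe shared a run of 27 of 60 bases, and each held 8 cysteine codons among its 20 codons. The second MT1H probe and the MT1X probe shared 23 bases, while the MT3 probe shared at most 15 bases with any other member. The file itself listed transcripts of MT1A and MT1M for the MT1A probe, of MT1H and MT1M for A_23_P163782, of MT1H, MT1L and MT1X for A_23_P414343, and of MT1A, MT1H and MT1X for A_23_P303242. Signals of these 4 probes are therefore uncertain as to which MT1 gene they came from, and the MT1 probes were not independent readings. MT1E A_23_P206724 and MT1X A_24_P125096 also shared 23 bases with each other, so the same doubt extends to them. The lowest shared runs were those of MT2A A_23_P106844 and MT1L A_24_P357405 (7 bases each), MT3 A_23_P129629 (8 bases), and MT1E A_23_P420942 and MT1G A_23_P206707 (10 bases each). The MT1G probe A_23_P206707 spanned the start codon, and its last 30 bases are shown from that codon (capitals) on.
MT1G A_23_P206707: ATGgaccccaactgctcctgtgccgctggt

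RefSeq promoter sequences (build GRCh38.p14) were at hand for 4 of the 10 names, and the 200 bases before the transcript start are shown because metal response elements there are how these genes are known to be induced together. Capitals mark matches on either strand to TGCNCNC, the loose pattern used here for the metal response element.
MT2A, chr16:56608384-56608583, plus strand: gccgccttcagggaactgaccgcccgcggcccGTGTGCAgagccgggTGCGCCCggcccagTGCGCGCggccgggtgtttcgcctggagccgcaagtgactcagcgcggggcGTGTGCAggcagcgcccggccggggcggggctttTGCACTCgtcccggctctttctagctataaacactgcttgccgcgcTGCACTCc
MT1X, chr16:56682270-56682469, plus strand: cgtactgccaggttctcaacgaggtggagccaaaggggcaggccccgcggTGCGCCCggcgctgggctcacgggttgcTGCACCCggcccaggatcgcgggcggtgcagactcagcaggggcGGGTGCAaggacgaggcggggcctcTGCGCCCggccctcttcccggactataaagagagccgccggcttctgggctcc
MT1H, chr16:56669614-56669813, plus strand: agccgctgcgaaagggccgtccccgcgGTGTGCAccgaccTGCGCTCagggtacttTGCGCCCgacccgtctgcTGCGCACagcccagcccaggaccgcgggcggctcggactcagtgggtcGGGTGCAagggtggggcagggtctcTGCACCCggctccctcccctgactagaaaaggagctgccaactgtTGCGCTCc
MT1B, chr16:56651686-56651885, plus strand: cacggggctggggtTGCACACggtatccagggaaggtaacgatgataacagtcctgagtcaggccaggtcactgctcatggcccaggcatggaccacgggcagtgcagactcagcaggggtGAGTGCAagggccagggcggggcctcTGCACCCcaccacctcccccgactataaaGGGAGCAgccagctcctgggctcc

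The metal response pattern matched 7 times in MT1H, 6 times in MT2A and 4 times each in MT1X and MT1B. Of 34780 distinct promoter windows of the same length, 43.0% held at least 1 match, 0.975% at least 4 and 0.086% at least 6. A GC box (GGGCGG, either strand) had 1 match each in MT1H and MT1B and 2 each in MT2A and MT1X, and 40.1% of windows held at least 1. In MT1X a GC box and a match to the metal response pattern overlapped by 2 bases. The loose pattern used for the antioxidant response element (TGANNNNGC) had 2 matches in MT1B, 1 each in MT2A and MT1X and 0 in MT1H, and 29.6% of windows held at least 1. The glucocorticoid receptor core (TGTTCT) had no match in the 4 windows, and 9.80% of windows held at least 1. A match is a run of letters and no evidence of binding.

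**Figure D1:**
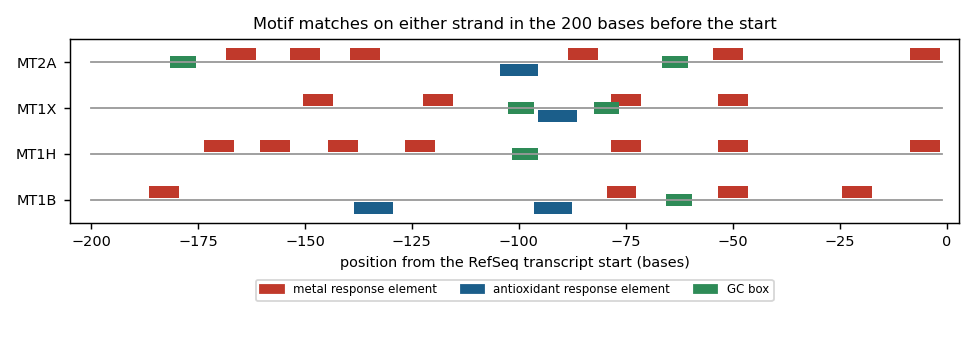
Positions of motif matches on either strand in the 200 bases before the RefSeq transcript start (x axis, bases from the start) of MT2A, MT1X, MT1H and MT1B. Red bars are matches to the pattern used for the metal response element (6, 4, 7 and 4 matches). Blue bars are matches to the pattern used for the antioxidant response element, and green bars are GC boxes.

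The metallothioneins were among the brightest probes of the arrays. Of the 17 probes, 12 had a mean log2 intensity of 13.39 to 16.60, which put them between the 96.3rd and the 99.9th percentile of all probes. By this mean over both slides the brightest was MT2A A_24_P361896, while on slide 2 the other MT2A probe was higher (16.22 against 16.10). The other 5 were MT3 A_23_P129629 at the 84.7th percentile, MT1F at the 74.3rd, MT3 A_23_P315273 at the 62.2nd, MT1E A_23_P420942 at the 44.4th and MT1L A_24_P357405 at the 5.3rd. The file named no RefSeq transcript for MT1E A_23_P420942 or for the bright MT1L probe A_23_P427703, so the latter is called MT1L by the file's gene name alone. Of the probes named MT1L, the one with an MT1L RefSeq transcript was not above background. These ranks are of probe intensity and are not read as a ranking of the genes by RNA.

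Within a probe, the metallothioneins were lower on slide 2 than on slide 1, except MT1E A_23_P420942 (6.80 on each). The median difference in level over the 16 tested probes was -1.83 (log2), against a median of -0.07 over all tested probes, and 13 of the 16 were at least 2-fold lower, where 12.5% of all tested probes were. MT1F had a mean level of 11.20 on slide 1 (arrays from 11.17 to 11.28) and of 7.01 on slide 2 (arrays from 6.94 to 7.08). The slides did not overlap. MT1G A_23_P206707 was at 15.01 on slide 1 (from 14.89 to 15.15) and at 11.78 on slide 2 (from 11.63 to 11.88). MT1X A_23_P303242 was at 16.77 and 14.77, and MT3 A_23_P129629 at 11.45 and 9.67. MT2A departed least among the bright probes. Its probe A_23_P106844 was at 16.43 on slide 1 and at 16.22 on slide 2, and A_24_P361896 at 17.09 and 16.10. In the RNA labelled 2 Gy without Si306, the median over members was -1.70 when Cy3 of slide 2 was set against Cy5 of slide 1, and in the RNA labelled 10 Gy it was -1.72. In bulk RNA, fewer cells of a type and less RNA per cell could not be told apart.

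**Figure D2:**
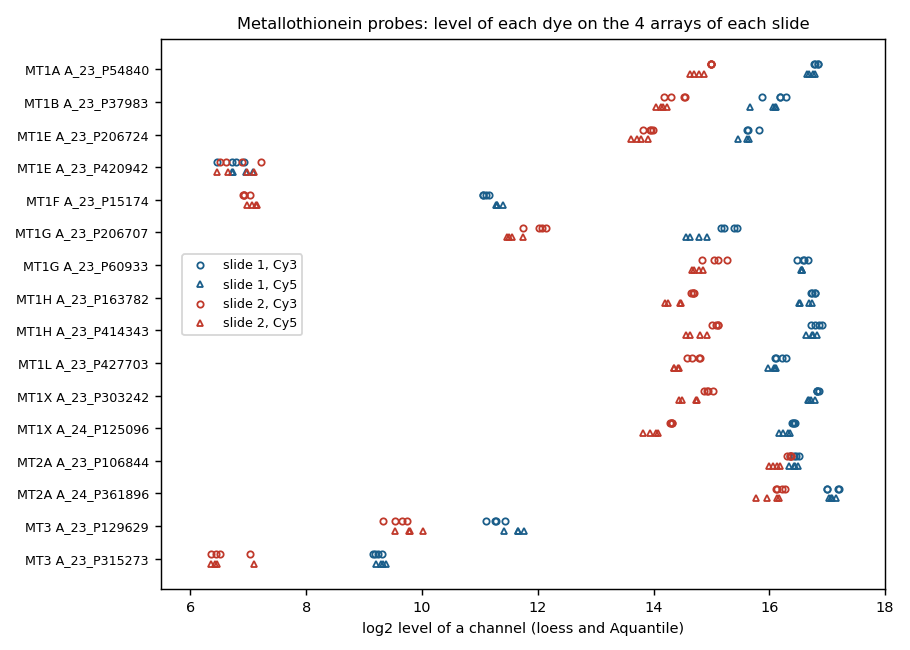
Level of each dye (x axis, log2 intensity after loess within and Aquantile between arrays) for the 16 tested metallothionein probes (y axis) on the 4 arrays of slide 1 (blue, untreated and PT alone) and of slide 2 (red, PT alone and Si306 + PT). Circles are Cy3 and triangles Cy5. In 13 of 16 probes the mean of slide 2 was at least 2-fold lower, and MT1F went from 11.20 to 7.01.

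The first question was what PT did to the metallothioneins. In U87 2 Gy, 10 of 16 probes fell and 2 rose against untreated cells (limma, adjusted p under 0.05 over all tested probes), where 25.2% of all tested probes fell and 32.2% rose. No member changed 2-fold, where 0.647% of all tested probes rose and 0.0429% fell by that much. The members had a median log2 ratio of -0.13, and all tested probes had a median of 0.02. These directions hold relative to the loess curve, which follows intensity. With each scan centred on its median in place of loess, 14 of the 16 probes were called higher and none lower, where 58.2% of all tested probes were higher and 26.2% lower. The median of all tested probes moved to 0.24, and that of 1494 tested probes in the intensity range of the 12 bright members to 0.71. On that scale the 12 bright members had a median of 0.59, and under loess they had a median of -0.16 against -0.01 for the 1494 probes. The range was of the mean log2 intensity over both slides (13.39 to 16.60). Most bright members lay near its top, and it was not matched on each slide, so the 1494 probes are a rough match.

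MT1G A_23_P206707 had the largest fall. Its log2 ratios were -0.65 on array 1 and -0.65 on array 2, with a mean of -0.65 ± 0.033 (SE, n = 2), or 0.636 of the untreated level (adjusted p = 4.55e-08, limma). The other MT1G probe, A_23_P60933, which lies nearer the 3′ end by its coordinates, had ratios of -0.04 and -0.11 and did not pass (-0.07 ± 0.040, adjusted p = 0.151). Over the 8 arrays the probes of MT1G differed by a root mean square of 0.41. Those of MT3 differed by 0.26, of MT2A by 0.13, of MT1H by 0.10 and of MT1X by 0.09.

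MT1X A_24_P125096 had ratios of -0.28 and -0.19, and MT1X A_23_P303242 of -0.14 and -0.13. Both fell, by 0.24 (a mean of -0.24 ± 0.037, adjusted p = 0.000235) and by 0.14 (-0.14 ± 0.037, adjusted p = 0.008). MT1H A_23_P163782 fell as well (-0.29 and -0.20, mean -0.24 ± 0.034, adjusted p = 0.000103). MT1A, MT1B, the second MT1H probe and the bright MT1L probe had means from -0.20 to -0.10 and passed. MT1E A_23_P206724 was marked as an outlier in every scan of array 1, so its ratio of -0.36, counted among the 10, rested on array 2 alone and had no replicate. Of the MT2A probes, A_24_P361896 had ratios of -0.09 and -0.14 and passed (adjusted p = 0.041), while A_23_P106844 had ratios of -0.09 and 0.02 and did not (adjusted p = 0.512).

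Both members that rose were dimmer probes. MT3 A_23_P129629 had ratios of 0.39 and 0.34, a mean of 0.36 ± 0.036 and 1.29 times the untreated level (adjusted p = 6.9e-06). MT1F had ratios of 0.19 and 0.24 (mean 0.22 ± 0.038, adjusted p = 0.000517). The second MT3 probe, A_23_P315273, had ratios of 0.07 and 0.09 and did not pass (adjusted p = 0.148). The count of 10 falling probes was 7 without array 1 of U87 2 Gy and 5 without array 2.

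In U87 10 Gy, 1 of 16 probes fell and 3 rose, where 26.9% of all tested probes fell and 31.5% rose. At 2-fold no member passed, and 0.782% of all tested probes rose and 0.135% fell. The median over members was -0.01. The falling probe was again MT1G A_23_P206707, with ratios of -0.53 and -0.47 (mean -0.50 ± 0.033, adjusted p = 2.44e-07). With median centring it stood at 0.13, and all 16 probes were called higher, as were 56.5% of all tested probes. There the 12 bright members had a median of 0.62, above the 0.58 of the 1494 probes in their intensity range. Under loess the bright members had -0.06 against -0.02. The count of falling probes was 5 with the log ratio of the scanner software and 4 without array 1 of U87 10 Gy. MT3 A_23_P129629 rose (ratios 0.39 and 0.31, mean 0.35 ± 0.036, adjusted p = 7.89e-06), as did MT1F (0.24 and 0.22, mean 0.23 ± 0.038, adjusted p = 0.000314). The third was MT1E A_23_P420942 (0.15 and 0.27, mean 0.21 ± 0.044, adjusted p = 0.00155), which was not well above background in Cy3 on array 2. MT2A stayed close to the untreated cells. A_24_P361896 had ratios of 0.03 and 0.14 with an interval from -0.01 to 0.18, and A_23_P106844 had ratios of -0.02 and 0.00 with an interval from -0.10 to 0.08 (95% intervals of the mean).

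The doses of PT were then compared directly. The log2 ratio was higher at 10 Gy than at 2 Gy in 6 of 16 probes and lower in none, where 9.29% of all tested probes were higher and 10.6% lower. None of the 16 differed 2-fold, as 0.0231% of all tested probes did upward and 0.0165% downward. Among the 6 was MT1E A_23_P206724 (0.36 ± 0.064, adjusted p = 0.00403), which had 1 array at 2 Gy, so that its spread came from the other configurations alone and the 2 Gy value had no replicate. MT2A A_24_P361896 differed by 0.20 ± 0.062 (adjusted p = 0.0408), MT1H A_23_P163782 by 0.19 ± 0.049 (adjusted p = 0.0173), and MT1A, MT1X A_24_P125096 and MT1G A_23_P206707 by 0.17, 0.17 and 0.15. This comparison was fragile. With median centring the count was 0, where 4.8% of all tested probes were higher, and the median over members was -0.03. With the 2 scans that bear the label of the other dose kept by label the count was 0 too, but then 0% of all tested probes passed. Without 1 array of PT alone the median over members ran from 0.08 to 0.12, against 0.11 with all arrays. Fewer probes then passed, among the members and among all tested probes. Of the p53 target genes listed as a check of the irradiation, CDKN1A rose by 0.38 ± 0.031 at 2 Gy and by 1.19 ± 0.031 at 10 Gy (adjusted p = 1.5e-06 and 2.27e-10). The other, MDM2, did not rise at both doses, as its brighter probe fell at 2 Gy (-0.21 ± 0.040, adjusted p = 0.000932) and rose at 10 Gy (0.10 ± 0.040, adjusted p = 0.0442), and its dimmer probe had ratios of 0.05 (adjusted p = 0.171) and 0.27 (adjusted p = 3.17e-05).

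**Figure D3:**
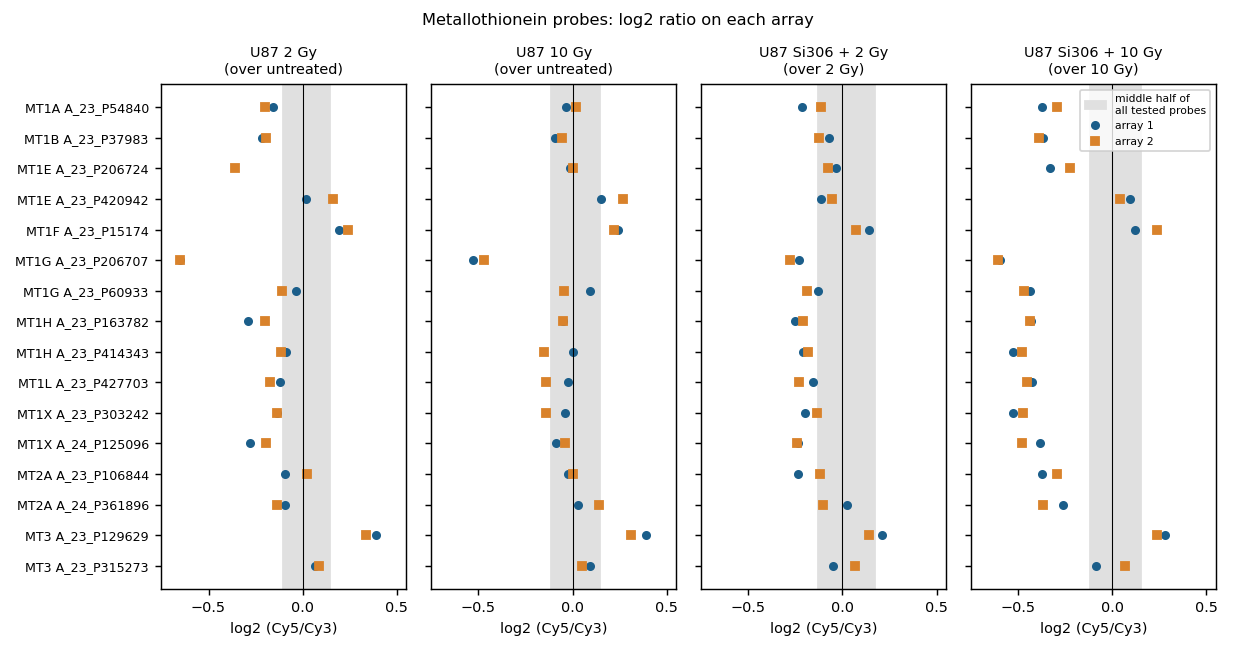
Log2 ratio of Cy5 over Cy3 (x axis) of the 16 tested metallothionein probes (y axis) on array 1 (circles) and array 2 (squares) of each configuration, with the interquartile range of all tested probes shaded. Relative to the loess curve, 10, 1, 10 and 12 probes were called lower from left to right, and with median centring 0, 0, 2 and 1. MT1G A_23_P206707 has the lowest mean in each panel and MT3 A_23_P129629 lies to the right of 0 in all 4.

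The second question was what Si306 added to PT. In U87 Si306 + 2 Gy, 10 of 16 probes fell and 2 rose against 2 Gy without Si306, where 28.6% of all tested probes fell and 36.3% rose. At 2-fold no member passed, and 0.492% of all tested probes rose and 0.162% fell. The median over members was -0.16. MT1G A_23_P206707 had ratios of -0.23 and -0.28 (mean -0.25 ± 0.033, adjusted p = 4.41e-05). MT1X A_24_P125096 had ratios of -0.23 and -0.24 (mean -0.24 ± 0.037, adjusted p = 0.00018), and MT1H A_23_P163782 of -0.25 and -0.21 (mean -0.23 ± 0.034, adjusted p = 0.000127). MT2A A_23_P106844 fell (-0.23 and -0.12, mean -0.18 ± 0.041, adjusted p = 0.00293), whereas MT2A A_24_P361896, with ratios of 0.02 and -0.10, did not pass (adjusted p = 0.443). MT3 A_23_P129629 (mean 0.18 ± 0.036, adjusted p = 0.0013) and MT1F (mean 0.11 ± 0.038, adjusted p = 0.0299) rose. With median centring, 13 probes were called higher and 2 lower, where 60.6% of all tested probes were higher and 28.6% lower. The 1494 probes in the intensity range of the 12 bright members then had a median of 1.29 against 1.12 for those members.

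In U87 Si306 + 10 Gy, 12 of 16 probes fell and 2 rose against 10 Gy without Si306, where 27.9% of all tested probes fell and 33.1% rose. At 2-fold no member passed, and 0.254% of all tested probes rose and 0.0891% fell. The 12 were the bright probes, all of them. Their means ran from -0.60 to -0.28, with a median of -0.43. The 1494 probes in their intensity range, taken over both slides and not on slide 2 alone, had a median of 0.02, and 34.0% of them fell. None of the 12 had an array above 0. MT1G A_23_P206707 was at -0.60 on array 1 and -0.61 on array 2 (mean -0.60 ± 0.033, 0.659 of the level without Si306, adjusted p = 9.02e-08). MT1H A_23_P414343 had ratios of -0.53 and -0.48 (mean -0.51 ± 0.040, adjusted p = 1.2e-06), and MT1X A_23_P303242 of -0.53 and -0.48 (mean -0.50 ± 0.037, 0.706 of the level without Si306, adjusted p = 6.76e-07).

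MT2A fell by 0.34 in A_23_P106844 (ratios -0.38 and -0.30, mean -0.34 ± 0.041, adjusted p = 3.42e-05) and by 0.32 in A_24_P361896 (ratios -0.26 and -0.37, mean -0.32 ± 0.043, adjusted p = 8.35e-05). The bright MT1E probe had the smallest of these falls (-0.33 and -0.23, mean -0.28 ± 0.037, adjusted p = 9.63e-05). In the other direction, MT3 A_23_P129629 had ratios of 0.28 and 0.24 (mean 0.26 ± 0.036, adjusted p = 8.75e-05) and MT1F of 0.12 and 0.24 (mean 0.18 ± 0.038, adjusted p = 0.00192). MT3 A_23_P315273 was not well above background in Cy3 on both arrays, so no fold is given for it. With median centring the members' median turned to 0.38, and 13 probes were called higher and 1 lower, where 56% of all tested probes were higher and 23.9% lower. The 1494 probes in the intensity range of the bright members then had a median of 0.84, above that of the bright members (0.38).

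The contrast between the doses of the combined treatment did not turn with the scaling. The log2 ratio for Si306 was lower at 10 Gy than at 2 Gy in 11 of 16 probes and higher in none, where 11.9% of all tested probes were lower and 9.39% higher. None of the 16 differed 2-fold, as 0.0528% of all tested probes did upward and 0.102% downward. Among the 1494 probes in the intensity range of the bright members 18.5% were lower. The median over members was -0.21 with loess and -0.65 with median centring. That of all tested probes was -0.01 and -0.11, and that of the 1494 probes -0.04 and -0.48. With median centring 12 members were lower, but so were 40.1% of all tested probes. MT1G A_23_P206707 differed by -0.35 ± 0.046 (95% interval from -0.45 to -0.25, adjusted p = 0.00061), MT1X A_23_P303242 by -0.34 ± 0.052 (adjusted p = 0.00151) and MT1H A_23_P414343 by -0.31 ± 0.056 (adjusted p = 0.00365). MT2A A_24_P361896 differed by -0.28 ± 0.062 (adjusted p = 0.0101), and the other MT2A probe by -0.16 ± 0.058, which did not pass (interval from -0.29 to -0.03, adjusted p = 0.0778). MT3 and MT1F did not share it. The difference was 0.08 for MT3 A_23_P129629 (interval from -0.03 to 0.20) and 0.07 for MT1F (interval from -0.05 to 0.19). Leaving out 1 of the 4 arrays of slide 2 kept the median over members between -0.23 and -0.21, with 1 configuration resting on 1 array. Fewer probes then passed, among the members and among all tested probes.

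**Figure D4:**
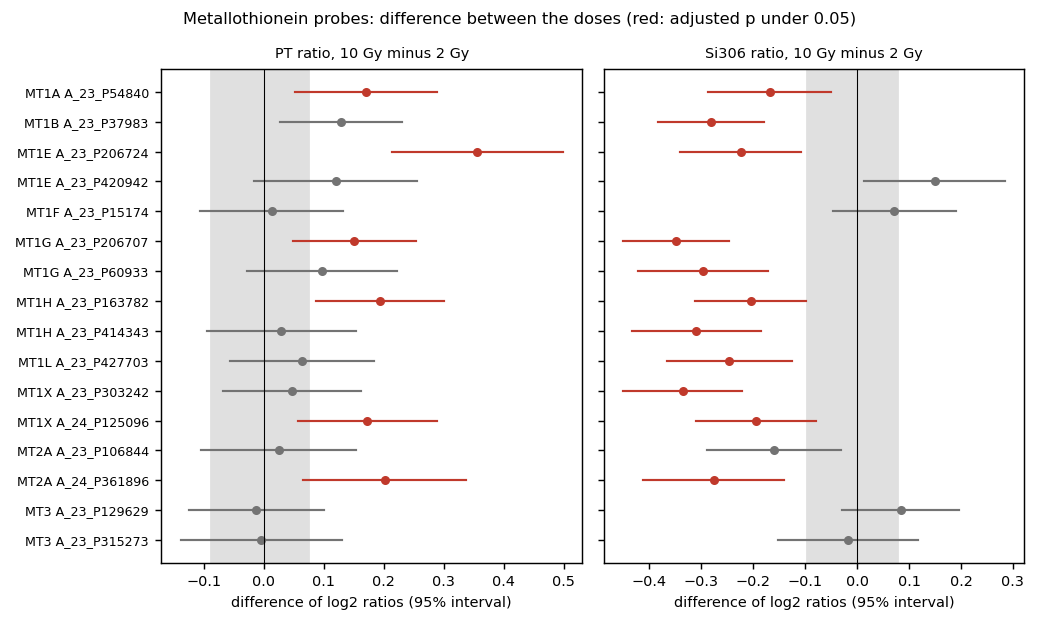
Difference of log2 ratios between 10 Gy and 2 Gy (x axis, points with 95% intervals) for each tested metallothionein probe, on the left for PT over untreated cells and on the right for Si306 + PT over PT. Red marks an adjusted p under 0.05 (6 probes on the left, all above 0, and 11 on the right, all below 0), and the shaded band is the interquartile range of all tested probes. With median centring 0 probes passed on the left and 12 on the right. Of all tested probes, 4.8% were then higher on the left and 40.1% lower on the right.

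**Figure D5:**
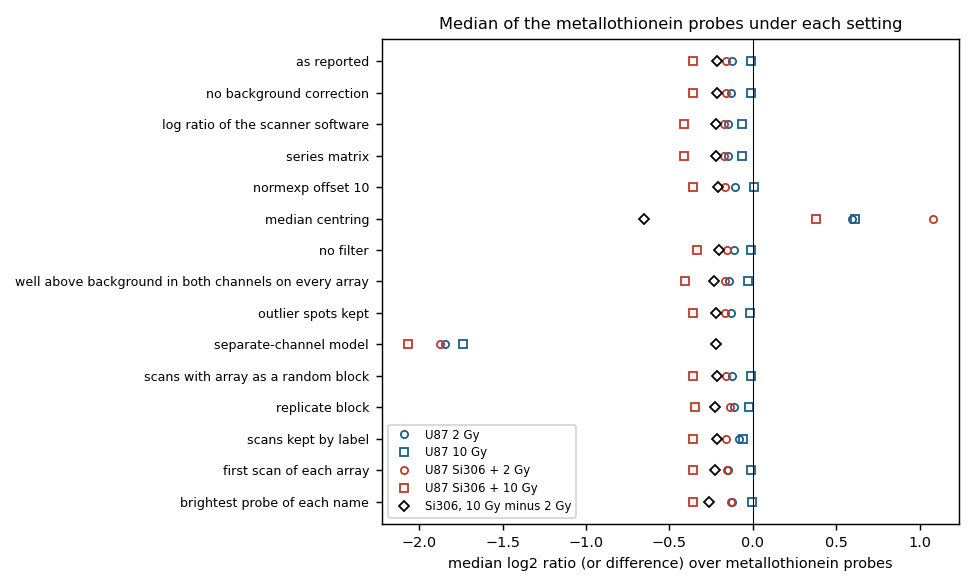
Median over the metallothionein probes (x axis, log2 ratio, or the difference for the black diamonds) under each way of processing (y axis) in the 4 configurations. Median centring moved the configurations above 0 and a separate-channel model, which takes RNA of the same label as equal on both slides, moved them to between -2.07 and -1.74, while the diamonds stayed below 0 throughout, at -0.21 as reported and -0.65 with median centring.

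Other metallothionein names on the array were MT1M, MT1JP and MT4, and MT4 was not well above background. MT1M, a functional gene of the same cluster, rose at 10 Gy (0.27 ± 0.042, adjusted p = 0.000181) and with Si306 + 2 Gy (0.18 ± 0.042, adjusted p = 0.00239), and it fell with Si306 + 10 Gy (-0.16 ± 0.042, adjusted p = 0.00571). Its Si306 ratio changed from the lower to the higher dose by -0.35 ± 0.059 (adjusted p = 0.00249). MT1JP, a pseudogene, was well above background in both dyes on the 4 arrays of slide 1 and in neither on slide 2, so no ratio with Si306 is given for it. It rose at 10 Gy (0.11 ± 0.038, adjusted p = 0.0346) and had a ratio of -0.02 at 2 Gy (adjusted p = 0.752). With median centring MT1M was called higher in all 4 configurations, and its Si306 ratio was still lower at 10 Gy (-0.63). On that scale MT1JP was called higher at 2 Gy (0.21) as well as at 10 Gy (0.33).

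The zinc and copper handling genes moved in both directions relative to the loess curve. Of 23 tested zinc genes, 9 rose and 4 fell at 2 Gy, 12 and 5 at 10 Gy, 11 and 7 with Si306 + 2 Gy, and 9 and 9 with Si306 + 10 Gy, and none changed 2-fold. With 1 probe per name, 32.1%, 31.2%, 38.6% and 35.2% of all names tested rose and 25%, 26.3%, 27.9% and 27.2% fell, in the same order. MTF1, the metal-sensing factor, rose by 0.16 ± 0.035 at 2 Gy and by 0.26 ± 0.035 at 10 Gy, and had ratios of 0.10 and 0.09 for Si306 at 2 and 10 Gy, which also passed (adjusted p = 0.0266 and 0.0445). SLC30A1, the zinc exporter that MTF1 induces, rose at 10 Gy (0.21 ± 0.035) and with Si306 + 2 Gy (0.39 ± 0.035) and Si306 + 10 Gy (0.22 ± 0.035), and had a ratio of -0.05 at 2 Gy (adjusted p = 0.263). The zinc importer gene SLC39A10 rose at 2 Gy (0.20 ± 0.037) and fell with Si306 + 2 Gy (-0.55 ± 0.037) and Si306 + 10 Gy (-0.49 ± 0.037). Of 14 tested copper genes, 6 rose and 4 fell at 2 Gy, 3 and 2 at 10 Gy, 4 and 6 with Si306 + 2 Gy, and 6 and 3 with Si306 + 10 Gy, again with none at 2-fold. With median centring 15 to 18 of the zinc genes and 11 to 13 of the copper genes were called higher in the 4 configurations, where 56% to 60.6% of all tested probes were, MTF1 and SLC30A1 were higher in all 4, and SLC39A10 stood at 0.15 with Si306 + 2 Gy and at -0.01 with Si306 + 10 Gy.

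The genes whose ratios lay nearest to those of a metallothionein were taken from 13063 names by the root mean square difference over the 8 arrays. For MT2A A_24_P361896 they were SH3YL1 (0.068), THBD (0.071), TUSC3 (0.081), EIF2A (0.082) and C18orf18 (0.083). For MT1X A_23_P303242 they were OSTM1 (0.046), ATP11A (0.052), PHLDA1 (0.055), EGFR (0.063) and TBC1D19 (0.075). EGFR, the receptor often amplified in glioblastoma, had mean ratios of -0.05, -0.10, -0.20 and -0.48 in the 4 configurations, in the order given above. All these ratios are small, and the likeness is a description of 8 arrays.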

How the data were processed

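The deposited scanner files, made by the authors with Agilent Feature Extraction 9.5.3.1, hold linear intensities of Cy5 and Cy3 and a log10 ratio for each spot, and the deposited series matrix holds the same log10 ratios rounded (largest difference 0.005). From the mean signals and median backgrounds, normexp (offset 50, fitted on spots with no outlier mark, since a few spots had extreme backgrounds) and loess within each scan were computed in limma 3.58.1 (R 4.3.3). Spots of controls, and those the scanner software flagged as outliers in signal or background (2.98% to 5.73% of gene spots per scan) were left out. In a scan, 57.3% to 66.5% of gene spots were well above background in Cy3 and 63.4% to 74.7% in Cy5. The number of arrays limits the precision.

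Scans of an array were averaged. The files' headers and the labels disagreed for 2 of 24 scans (U87 2 Gy replicate 5 and U87 10 Gy replicate 2, each on an array of the other dose), and these were left out. Over all probes, scans of an array differed by an SD of 0.069 to 0.086, these 2 included, and scans of different configurations by at least 0.167. Probes well above background in either dye on both arrays of at least 1 configuration were tested (30316 of 41000). All 8 arrays entered 1 lmFit and eBayes model with Benjamini-Hochberg adjustment over all tested probes, with thresholds of 0.05 and, as an alternative, 2-fold. The fit was checked on simulated ratios.

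Members, lists and tests were chosen with earlier results of these data known. Named were all member probes, MTF1, SLC30A1 and SLC39A10, zinc, copper and other metallothionein list genes past 2-fold (none), and the 5 names nearest to MT2A and to MT1X. MT1M, MT1JP and MT4 were named beyond this rule. Levels across arrays are per dye after loess and Aquantile and are open to dye bias. Alternatives covered background, normalization, filter, replication unit, scans, arrays, probes and the call. Sequences are from the scanner files and RefSeq.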

Additional observations from a re-analysis of the deposited data

Results flagged for a closer look

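The change with dose was tested as a difference of log2 ratios (limma, Benjamini-Hochberg over all tested probes), and 17 such differences of metallothionein probes passed. For Si306 + PT over PT, 10 Gy minus 2 Gy was -0.35 for MT1G A_23_P206707, -0.3 for MT1G A_23_P60933, -0.34 for MT1X A_23_P303242, -0.19 for MT1X A_24_P125096, -0.31 for MT1H A_23_P414343, -0.2 for MT1H A_23_P163782, -0.28 for MT1B, -0.28 for MT2A A_24_P361896, -0.25 for MT1L A_23_P427703, -0.22 for MT1E A_23_P206724 and -0.17 for MT1A. For PT over untreated cells it was 0.36 for MT1E A_23_P206724 (1 array at 2 Gy, with no replicate there), 0.2 for MT2A A_24_P361896, 0.19 for MT1H A_23_P163782, 0.17 for MT1X A_24_P125096, 0.17 for MT1A and 0.15 for MT1G A_23_P206707. The 2 sets of arrays lay on different slides, and the sets were not compared with each other.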

How the results depend on the processing

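The count of 11 lower calls in the Si306 difference between 10 and 2 Gy stayed within 1.5 times (8 to 12) under 11 of 14 other ways of processing the arrays. It had 7 with the log ratio of the scanner software or the series matrix, where 8.72% and 8.69% of all tested probes were lower. With scans kept by label it had 5, where 4.48% of all tested probes were lower. The 12 lower calls of U87 Si306 + 10 Gy were 8 to 14 under all other ways of processing except median centring. At an adjusted p under 0.05 and 2-fold, all counts were 0.

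With median centring, which moved the median of all tested probes to 0.24, 0.21, 0.36 and 0.21, the counts higher were 14, 16, 13 and 13 in the 4 configurations, the counts lower 0, 0, 2 and 1, and the dose difference of PT had 0 calls. The separate-channel model sets RNA of the same label on both slides equal, which it was not, and could not fit MT1E A_23_P206724. It gave 0 higher in all 4 configurations, 13 lower in U87 10 Gy and 1 higher in the dose difference. Each of the processed tables (log ratios from the scanner files, and their copy in the series matrix) gave 1 higher in U87 2 Gy, 5 lower in U87 10 Gy and 1 in the dose difference. The 1 lower call of U87 10 Gy became 3 with no background correction, with the strict filter or with scans kept by label, 2 with outlier spots kept, 5 with array as a random block and 0 with the brightest probe of each name. The dose difference of PT, 6 calls, had 1 with a normexp offset of 10, 2 with no filter or outlier spots kept, 0 with scans kept by label and 3 with the brightest probe of each name. Of all tested probes, 6.27%, 5.22%, 8.67%, 0% and 9.91% were higher there, in that order. U87 Si306 + 2 Gy had 1 higher with scans kept by label or the first scan alone and 6 lower with the brightest probes. With no background correction 1 probe was higher in the Si306 difference. Without both arrays that hold a scan with the other dose's label, chosen after seeing the data, U87 2 Gy had 6 lower and the dose difference 0.

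Leaving out 1 array at a time gave 5 to 10 lower and 2 to 3 higher in U87 2 Gy, 1 to 4 lower and 2 to 3 higher in U87 10 Gy, 7 to 10 lower and 1 to 2 higher in U87 Si306 + 2 Gy, 12 lower and 1 to 2 higher in U87 Si306 + 10 Gy, 1 to 4 in the PT dose difference, and 6 to 11 lower in the Si306 difference. The lone array was assumed to vary like the others. In comparisons that held a lone array, fewer of all tested probes were called too. The replicate numbers did not pair the samples (correlations of same-numbered scans from -0.07 to 0.09). With the replicate block, U87 10 Gy had 3 lower and the Si306 difference 2 higher and 12 lower. The cause of these changes was not tested.

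Median centring turned single values in 47 cases. In U87 2 Gy the log2 ratios became 0.59 for MT1A A_23_P54840, 0.55 for MT1B A_23_P37983, 0.47 for MT1E A_23_P206724, 0.073 for MT1G A_23_P206707, 0.74 for MT1G A_23_P60933, 0.54 for MT1H A_23_P163782, 0.67 for MT1H A_23_P414343, 0.60 for MT1L A_23_P427703, 0.68 for MT1X A_23_P303242, 0.56 for MT1X A_24_P125096, 0.72 for MT2A A_23_P106844 and 0.72 for MT2A A_24_P361896. In U87 10 Gy the log2 ratios became 0.66 for MT1A A_23_P54840, 0.54 for MT1B A_23_P37983, 0.64 for MT1E A_23_P206724, 0.13 for MT1G A_23_P206707, 0.61 for MT1H A_23_P163782, 0.62 for MT1H A_23_P414343, 0.56 for MT1L A_23_P427703, 0.60 for MT1X A_23_P303242, 0.59 for MT1X A_24_P125096 and 0.62 for MT2A A_23_P106844. In U87 Si306 + 2 Gy the log2 ratios became 1.13 for MT1A A_23_P54840, 1.12 for MT1B A_23_P37983, 1.13 for MT1E A_23_P206724, 0.70 for MT1G A_23_P206707, 1.16 for MT1G A_23_P60933, 1.02 for MT1H A_23_P163782, 1.11 for MT1H A_23_P414343, 1.06 for MT1L A_23_P427703, 1.12 for MT1X A_23_P303242, 0.97 for MT1X A_24_P125096, 1.25 for MT2A A_23_P106844, 1.36 for MT2A A_24_P361896 and -0.21 for MT3 A_23_P315273. In U87 Si306 + 10 Gy the log2 ratios became 0.51 for MT1A A_23_P54840, 0.42 for MT1B A_23_P37983, 0.47 for MT1E A_23_P206724, 0.023 for MT1G A_23_P206707, 0.38 for MT1G A_23_P60933, 0.38 for MT1H A_23_P163782, 0.34 for MT1H A_23_P414343, 0.38 for MT1L A_23_P427703, 0.33 for MT1X A_23_P303242, 0.35 for MT1X A_24_P125096, 0.62 for MT2A A_23_P106844 and 0.63 for MT2A A_24_P361896.

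The separate-channel model turned 13 values. In U87 2 Gy the log2 ratios became -4.17 for MT1F A_23_P15174, -1.71 for MT3 A_23_P129629 and -2.57 for MT3 A_23_P315273. In U87 10 Gy the log2 ratios became -4.14 for MT1F A_23_P15174, -1.46 for MT1G A_23_P60933, -0.86 for MT2A A_24_P361896, -1.70 for MT3 A_23_P129629 and -2.71 for MT3 A_23_P315273. In U87 Si306 + 2 Gy the log2 ratios became -4.27 for MT1F A_23_P15174, -1.90 for MT3 A_23_P129629 and -2.67 for MT3 A_23_P315273. In U87 Si306 + 10 Gy the log2 ratios became -4.20 for MT1F A_23_P15174 and -1.78 for MT3 A_23_P129629.

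The 2 arrays per configuration limited the precision, and ratios of probes near background call for care.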
